A study of Mus musculus with 72 samples.

Results

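The 9 genes described here are transcripts used to mark the layers of the cerebral cortex: Cux1, Cux2, Lamp5 and Rasgrf2 for the upper layers, Rorb for layer IV, and Fezf2, Bcl11b, Tbr1 and Foxp2 for the deep layers. They were taken by name from the read counts of 53715 genes, and their identifiers were matched to mouse gene symbols. The measurements are RNA-seq libraries of C57BL/6J male mice of 18 weeks, either Gnb5-/- (KO), which carry a germline deletion of exon 3 of Gnb5 on both alleles in every tissue, or Gnb5+/+ (WT). Gnb5 encodes the G protein subunit beta 5, which works with the R7 family of RGS proteins to end inhibitory G protein signalling. Whole cortex, whole cerebellum and the hippocampi of both hemispheres were taken from 6 KO and 6 WT mice, which gives 36 brain libraries, and 36 heart libraries of the same series, which also include Gnb5+/- mice, are used only once below. Each library is 1 region of 1 mouse, so that p-values of KO against WT within a region measure the spread between mice. Those of tests with the mouse as a block measure the spread that remains after differences between mice are removed.

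The neocortex is built in layers of excitatory neurons that are born in succession, the deep layers first. Cells of the upper layers and of layer IV connect mainly within the cortex and receive thalamic input, whereas cells of layers V and VI project to the brainstem, spinal cord and thalamus. Transcription factors such as Cux2, Rorb, Fezf2 and Tbr1 are restricted to some of these layers and are widely used to tell them apart. In whole-tissue RNA, fewer cells of a layer and less RNA per cell cannot be told apart.

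Levels are given as CPM, the count relative to the library total with TMM scaling, which corrects for library composition, and were scaled over the 36 brain libraries. The cortical libraries held 29204390 to 43666511 reads counted on genes. Gnb5 itself was at 135 ± 9.09 CPM (SD, n = 6) in WT cortex and at 15.9 ± 2.08 in KO cortex, with no overlap of the groups in any of the 3 regions. Markers of the other regions went with the labels: all 8 hippocampal markers were higher in WT hippocampus than in WT cortex, and all 8 cerebellar markers were higher in WT cerebellum than in WT cortex, by edgeR's quasi-likelihood test with Benjamini-Hochberg adjustment. In cortex 2 libraries stood apart, KO replicate 3 (mouse M14) and KO replicate 5 (mouse M3). They are given separately for most members in the comparison of KO with WT cortex. The KO regional counts, the nearest genes and the main test of the KO difference between regions include them. The cerebellar library of KO replicate 2 (mouse M12) stood apart in the same way, and the hippocampal libraries of M14 and M3 did not.

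The members lie on 7 chromosomes of GRCm38, and none shares chromosome 9 with Gnb5. Cux1 is at chr5:136248135-136567490 and Cux2 at chr5:121856366-122050102, both on the minus strand. The Cux1 row also takes in the reads of transcripts for a Golgi protein that share its first exons. Lamp5 is at chr2:136052239-136069917 and Tbr1 at chr2:61802930-61814114, both on the plus strand, and Foxp2 is at chr6:14901349-15441977, on the plus strand. The minus-strand genes are Rasgrf2 at chr13:91880400-92131656, Rorb at chr19:18930605-19111196, Fezf2 at chr14:12342094-12348189 and Bcl11b at chr12:107910403-108003602. Genes that overlap a member held at most 23 counts in any brain library.

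RefSeq promoters of the GRCm38.p6 build, 250 bases each, were found for 8 of the 9 members, with 11 start sites in all. Those of Cux1 and Fezf2 are shown because these genes differ most in where they are read, as the levels below show. Capitals mark GGGCGG, a GC-box motif searched on both strands (CCGCCC on the other).
Cux1, chr5:136565982-136566231, minus strand: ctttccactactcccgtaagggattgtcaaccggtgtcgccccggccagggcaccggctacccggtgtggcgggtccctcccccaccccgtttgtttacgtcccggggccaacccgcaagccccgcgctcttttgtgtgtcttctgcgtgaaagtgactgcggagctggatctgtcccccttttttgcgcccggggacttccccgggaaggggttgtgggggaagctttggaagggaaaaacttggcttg
Fezf2, chr14:12345866-12346115, minus strand: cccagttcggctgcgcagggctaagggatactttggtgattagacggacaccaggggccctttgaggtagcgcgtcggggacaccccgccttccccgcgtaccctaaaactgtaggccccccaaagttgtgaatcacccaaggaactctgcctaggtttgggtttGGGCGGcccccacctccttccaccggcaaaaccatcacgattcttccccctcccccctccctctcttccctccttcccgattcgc
The motif was found in 3 of the 11 member promoters (those of Rorb, Fezf2 and Tbr1), and in 32.7% of 32851 promoters of the same length. CCAAT was found in 2 of 11 against 33.8%, and TATAAA in 1 of 11 against 12.4%. These are matches of letters in a window and not binding sites.

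In WT cortex, levels per kilobase of exon spanned from Lamp5 at 75.3 ± 12.8 CPM per kb (SD, n = 6) to Foxp2 at 0.987 ± 0.232. Rasgrf2, at 29.5 ± 2.19, and Tbr1, at 20.9 ± 1.09, followed Lamp5. Cux2 was at 13.2 ± 1.06, Bcl11b at 9.76 ± 1.65, Fezf2 at 6.70 ± 0.918, Cux1 at 5.70 ± 0.448 and Rorb at 3.41 ± 0.378 CPM per kb. The ranges of Fezf2 and Cux1 overlapped, as did those of Cux2 and Bcl11b. Within each WT library Cux2 was above Bcl11b, whereas the order of Fezf2 and Cux1 differed between libraries. Lengths were taken over all exons, which understates a gene with many rarely used exons. Of all 9, Tbr1 varied least between WT mice, with a coefficient of variation of 5.23%, and Foxp2 most, with 23.5%.

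The regional comparison asked how far these genes are cortical at all. In the WT mice, all 9 members differed between cortex and hippocampus and all 9 between cortex and cerebellum, where 55.9% and 81.2% of all genes tested differed (edgeR's quasi-likelihood test with the mouse as a block, Benjamini-Hochberg adjusted p below 0.05). Against hippocampus 7 were higher in cortex (28.6% of all genes) and against cerebellum 8 were higher (42% of all genes). The median member difference was 1.22 on the log2 scale against hippocampus and 6.33 against cerebellum, where the median of all genes was 0.01 and 0.02. Fezf2, whose cerebellar fold rests on 0 to 2 counts per library, lay above the second median. In the KO mice the same counts, 9 of 9 in both comparisons, were found with 19.1% and 52.4% of genes called, and 7 and 8 members were again higher in cortex (10.3% and 28.2% of all genes).

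Among the upper-layer genes, Cux1 was not highest in cortex. Cux1, a homeodomain factor of layers II to IV, was at 114 ± 8.98 CPM in WT cortex, 41.6 ± 2.63 in WT hippocampus and 146 ± 4.88 in WT cerebellum. The libraries of the 3 regions did not overlap, and cerebellum exceeded cortex by 0.36 on the log2 scale (fold change of cortex over cerebellum -0.36, SE 0.04, edgeR adjusted p = 4.51e-08). Its paralog Cux2, which marks the same layers, was at 133 ± 10.7 CPM in cortex, 28.2 ± 3.06 in hippocampus and 49.5 ± 4.04 in cerebellum, and cortex was highest, by 2.24 on the log2 scale over hippocampus and 1.43 over cerebellum. Lamp5, a membrane protein of upper layer neurons and of a class of interneurons, fell from 221 ± 37.4 CPM in cortex to 37.6 ± 3.04 in hippocampus and 0.356 ± 0.258 in cerebellum. Rasgrf2, a Ras exchange factor of layer II and III neurons, was at 272 ± 20.2 CPM in cortex, 128 ± 9.85 in hippocampus and 3.43 ± 0.970 in cerebellum. On the log2 scale cortex exceeded hippocampus by 2.54 for Lamp5 and 1.09 for Rasgrf2, and cerebellum by 9.30 and 6.33, with no overlap of libraries.

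Rorb, an orphan nuclear receptor that marks layer IV, was graded across the 3 regions. It was at 37.7 ± 4.19 CPM in WT cortex, 18.6 ± 1.57 in hippocampus and 9.81 ± 1.05 in cerebellum. Cortex was higher by 1.02 (SE 0.05) and 1.95 (SE 0.06) on the log2 scale.

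Of the deep-layer genes, Fezf2 and Bcl11b were higher in hippocampus than in cortex. Fezf2, a zinc finger factor needed for layer V corticospinal neurons, was at 20.4 ± 2.80 CPM in WT cortex and 39.0 ± 3.35 in WT hippocampus, a difference of -0.94 (SE 0.08) on the log2 scale. In WT cerebellum it had between 0 and 2 counts in a library. Bcl11b, also called Ctip2, acts downstream of Fezf2 in layer V and is expressed in striatal and hippocampal neurons too, and was at 79.2 ± 13.4 CPM in cortex, 144 ± 16.5 in hippocampus and 0.755 ± 0.175 in cerebellum. Tbr1, a T-box factor of layer VI, was at 115 ± 6.00 CPM in cortex, 49.6 ± 4.93 in hippocampus and 0.637 ± 0.108 in cerebellum. Foxp2, a forkhead factor of layer VI that Purkinje cells and striatal neurons also express, had 16.1 ± 3.79 CPM in cortex, 1.57 ± 0.327 in hippocampus and 11.9 ± 0.680 in cerebellum. For Foxp2 the cortical and cerebellar libraries overlapped, and the difference of 0.41 (SE 0.11) passed the test with the mouse as a block (edgeR adjusted p = 0.00312).

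**Figure D1:**
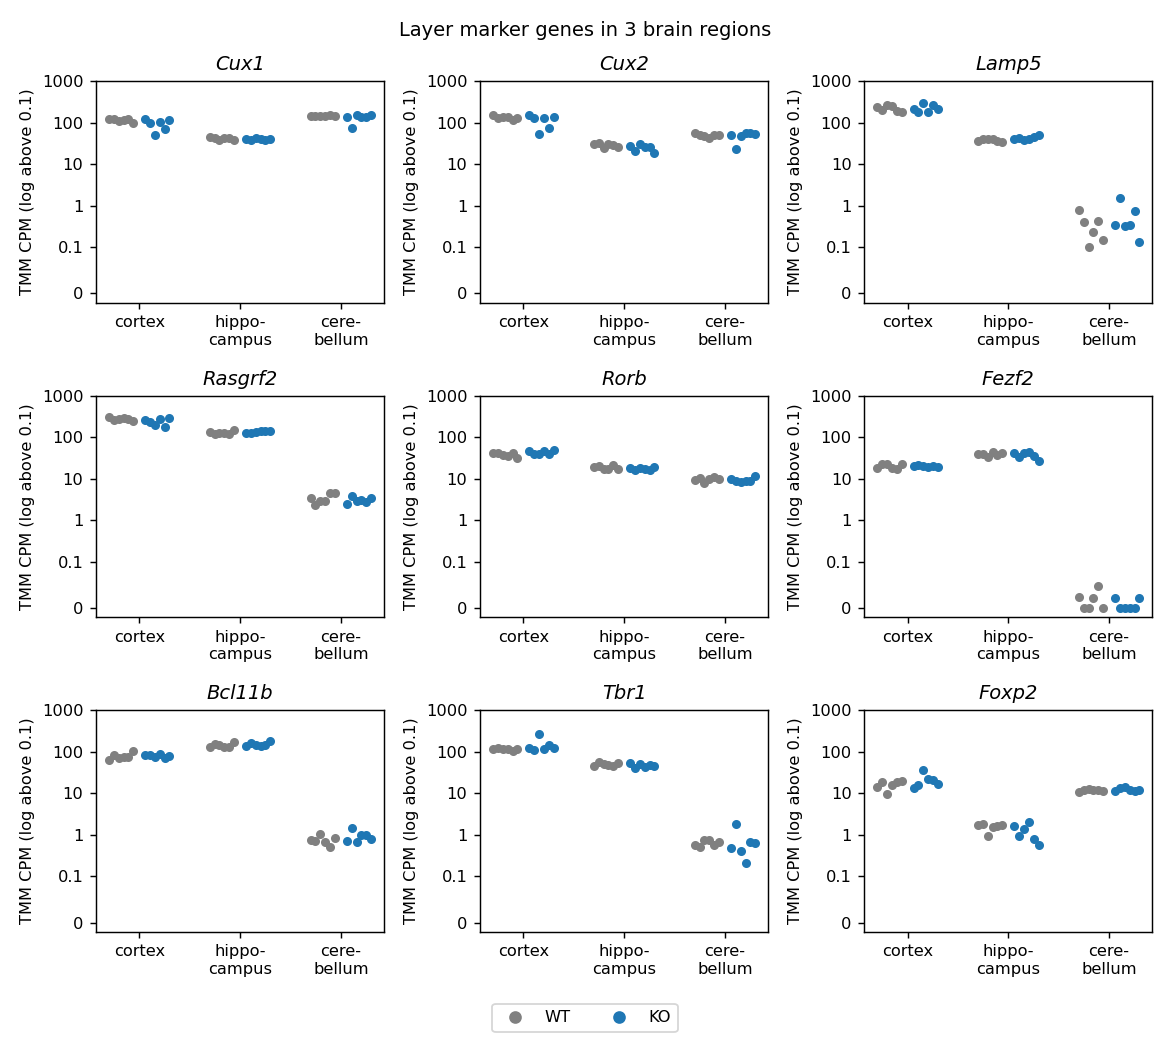
Each point is 1 library: TMM-scaled CPM on the vertical axis, logarithmic above 0.1 and linear from 0 to 0.1, of the 9 genes in cortex, hippocampus and cerebellum, WT in grey and KO in blue, 6 mice each. In cerebellum Cux1 lies between 72.2 and 156 CPM and Foxp2 between 10.9 and 14.3, whereas Fezf2 lies between 0 and 0.0485 there.

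Within the 36 heart libraries (atria and ventricles of 6 Gnb5-/-, 6 Gnb5+/- and 6 Gnb5+/+ mice), scaled together with the brain, Lamp5, Fezf2 and Tbr1 were close to 0, with at most 0.425, 0.106 and 0.274 CPM. Cux1 ranged from 103 to 155 CPM in heart, against a mean of 86.3 in WT cortex on that scale. Cux2 ranged from 10.05 to 23.6 CPM, Rasgrf2 from 7.93 to 24.9, Foxp2 from 3.73 to 21.1, Bcl11b from 2.01 to 15.8 and Rorb from 0.0981 to 4.22.

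For each member, the genes closest to it over the 36 brain libraries were found by the root mean square difference of centred log2 CPM, over all genes tested in cortex. Cux2 lay closest to Rgs6 (0.17) and then Chrdl1 (0.28), where the median over all genes was 1.07. Cux1 lay closest to Car10 and Pitpnm3 (0.16 each), Rorb to Hrasls (0.21) and Tmem196 (0.22), and Bcl11b to Camkv (0.30) and D430019H16Rik (0.34). Rasgrf2 had Dlk2 (0.32) and Pak6 (0.34) as nearest genes, Foxp2 had Atp6ap1l (0.33) and Sema3a (0.45), and Tbr1 had Dlx6 (0.42) and Gm49593 (0.46). Fezf2, with Chrm1 (0.45) and Zfp831 (0.46), and Lamp5, with Gm11549 (0.60) and Pdyn (0.63), had the largest differences from their nearest genes. Their medians over all genes were also the largest, at 4.22 for Fezf2 and 3.87 for Lamp5, against 0.92 for Cux1 and 0.96 for Rorb. The differences of separate members are therefore not on a like scale. No member was among the nearest genes of another member, and all 36 libraries share mice in sets of 3.

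The comparison of KO with WT cortex asked whether the layer markers shift in the absence of Gnb5. None of the 9 was called by edgeR's quasi-likelihood test (adjusted p from 0.474 to 0.928), where 0.0557% of 17967 genes were called. None had an unadjusted p below 0.05, against 7.39% of all genes, and DESeq2 also called 0. The WT and KO ranges overlapped for all 9, and 0.573% of all genes had groups that did not overlap. In KO 5 members were positive and 4 negative, with a median of 0.02 on the log2 scale beside 0.01 for all genes, and the median absolute difference was 0.20 for the members and 0.21 for all genes.

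Cux1 ranged from 100 to 122 CPM in WT cortex (median 117) and from 51.6 to 119 in KO cortex (median 102). The 2 lowest KO values were those of replicates 3 and 5, at 51.6 and 71.3, and the other 4 KO libraries were at 98.4 to 119. Its log2 difference was -0.28 (SE 0.18) over all libraries and -0.05 (SE 0.07) without these 2. Cux2 ranged from 116 to 149 CPM in WT (median 134) and from 54.1 to 154 in KO (median 129). Again replicates 3 and 5 were lowest, at 54.1 and 73.1, and without them the difference went from -0.24 (SE 0.22) to 0.05 (SE 0.07).

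Lamp5 went the other way in these libraries. It ranged from 177 to 265 CPM in WT (median 220) and from 178 to 288 in KO (median 213), with KO replicates 3 and 5 at 288 and 272 the highest of the 12. The difference was 0.02 (SE 0.15) with them and -0.16 (SE 0.11) without them. Rasgrf2 ranged from 246 to 303 CPM in WT (median 273) and from 180 to 288 in KO (median 246), with 194 and 180 in replicates 3 and 5. These were the lowest of the 12, and the difference went from -0.20 (SE 0.12) to -0.05 (SE 0.06) without them.

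Rorb was the only member whose 6 KO libraries all lay above the WT median. It ranged from 31.1 to 41.4 CPM in WT (median 38.7) and from 38.8 to 48.7 in KO (median 43.2), and replicates 3 and 5 were among the 3 lowest KO libraries, at 39.3 and 38.8. The difference of 0.20 (SE 0.10) had an adjusted p of 0.474 in edgeR and a two-sided exact permutation p of 0.0584 over all divisions of the 12 mice into 6 and 6, with 0.00216 the smallest possible. Without the 2 libraries it was 0.27 (SE 0.09), with an adjusted p of 0.941.

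Fezf2 was the least variable member in KO cortex. It ranged from 17.1 to 23.2 CPM in WT (median 20.6) and from 19.0 to 20.9 in KO (median 20.7), and replicates 3 and 5 both had 20.7. Bcl11b ranged from 65.2 to 103 CPM in WT (median 75.2) and from 72.7 to 89.5 in KO (median 80.2), so that the WT libraries held both the lowest and the highest value. The differences were -0.02 (SE 0.10) for Fezf2 and 0.02 (SE 0.11) for Bcl11b.

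Tbr1 ranged from 104 to 121 CPM in WT (median 115) and from 113 to 267 in KO (median 122). The highest KO libraries were replicate 3, at 267, and replicate 5, at 146, and the other 4 lay between 113 and 122. The difference of 0.37 (SE 0.19, edgeR adjusted p = 0.474, exact permutation p = 0.0628) was 0.06 (SE 0.05) without them. Foxp2 ranged from 9.57 to 19.7 CPM in WT (median 17.1) and from 13.3 to 35.8 in KO (median 18.7). Replicate 3 was highest at 35.8, replicate 5 was at 20.4, below KO replicate 4 at 22.4, and the difference went from 0.36 (SE 0.24) to 0.09 (SE 0.18).

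**Figure D2:**
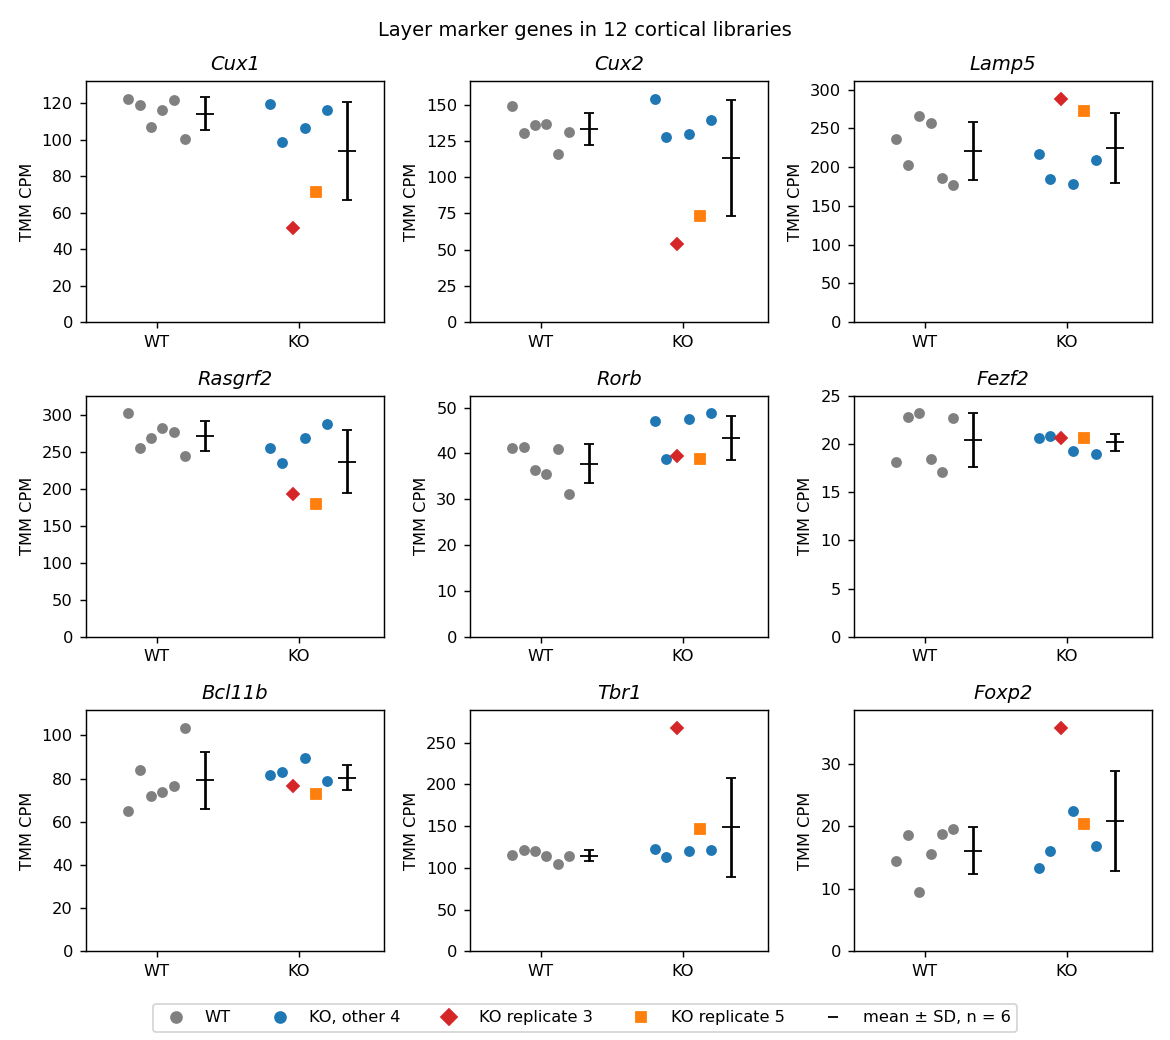
CPM (TMM-scaled, linear axes from 0) of the 9 genes in the 6 WT (grey) and 6 KO (blue) cortical libraries, with KO replicate 3 as a red diamond and KO replicate 5 as an orange square; bars are the mean ± SD of 6 libraries. Replicates 3 and 5 hold the lowest Cux1, Cux2 and Rasgrf2 values and the highest Lamp5 and Tbr1 values of the 12.

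**Figure D3:**
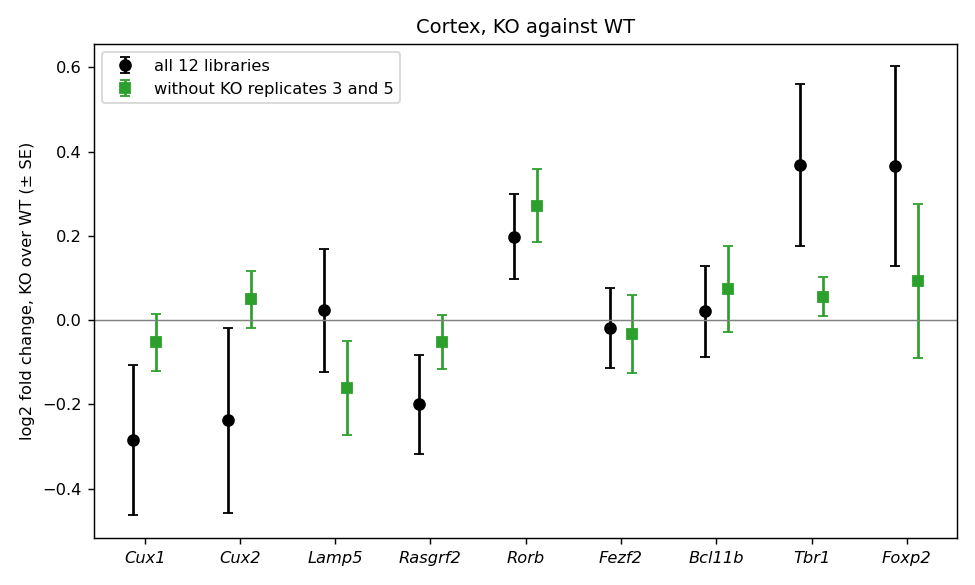
Log2 fold change of KO over WT cortex with its SE (edgeR) for each gene, over all 12 libraries (black circles) and without KO replicates 3 and 5 (green squares). Cux1, Cux2, Rasgrf2, Tbr1 and Foxp2 lie nearer to 0 without these 2 libraries, Lamp5 goes from 0.02 to -0.16, and Rorb from 0.20 to 0.27.

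How far KO replicates 3 and 5 depart was read against the range of the other cortical libraries. Replicate 3 was outside the range of the other 11 at 5 of 9 members, Cux1 and Cux2 below it and Lamp5, Tbr1 and Foxp2 above it, and at 75.5% of all genes tested, so that the members did not depart more often than other genes. Replicate 5 was outside at 1 of 9, Rasgrf2, and at 14.1% of all genes. Against the 10 libraries other than these 2, the counts were 6 of 9 for replicate 3 and 5 of 9 for replicate 5 (Cux1, Cux2, Lamp5, Rasgrf2 and Tbr1), beside 81.3% and 64.8% of all genes. In the other 10 libraries, 7.7% to 15.4% of genes were outside the range of the remaining 11.

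By layer, 3 of the 4 upper-layer members were low in both libraries. In replicate 3, relative to the median of those 10 libraries, Cux1 was at 0.44 times, Cux2 at 0.40 times and Rasgrf2 at 0.72 times the level, and Lamp5, also of the upper layers, at 1.40 times. Of the deep-layer genes, Tbr1 was at 2.28 times and Foxp2 at 2.17 times, whereas Fezf2 was at 1.03 times and Bcl11b at 0.96 times. In replicate 5 the upper-layer members were at 0.61 times (Cux1), 0.55 times (Cux2), 0.67 times (Rasgrf2) and 1.32 times (Lamp5), and the deep-layer members at 1.25 times (Tbr1), 1.24 times (Foxp2), 1.03 times (Fezf2) and 0.91 times (Bcl11b). The mean log2 level of the 4 upper-layer members minus that of the 4 deep-layer members was 0.84 in replicate 3 and 1.46 in replicate 5, against 1.69 to 2.34 in WT and 1.79 to 2.13 in the other 4 KO libraries. Both values were thus below those of the other 10 libraries. Of 11 further upper-layer genes, 7 were below and 2 above the range of the 10 in replicate 3, and 6 below and 1 above in replicate 5. Of 18 further deep-layer genes, 8 were below and 8 above in replicate 3, and 5 below and 5 above in replicate 5.

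Several properties of the whole libraries moved with these values. Reads outside genes were 6.86% and 8.32% of reads in replicates 3 and 5, and 13.1% to 15.6% in the others. Reads aligned to more than 1 place were 27.5% and 23.1%, against 18.0% to 19.3%. Genes with less exon sequence were higher and genes with more were lower. In replicate 3 the median log2 difference from the other 10 libraries was 0.93 for genes of 1 to 2 kb and -0.69 for genes over 8 kb, and in replicate 5 it was 0.45 and -0.42. Cux1, Cux2 and Rasgrf2, with 20024, 10082 and 9237 bases of exon, were low, and Lamp5, with 2933, was high. Cux2 was also below the lower quartile of genes over 8 kb, at -1.303 against -1.296 in replicate 3 and -0.87 against -0.76 in replicate 5. Foxp2, with 16346 bases, was higher by 1.11 on the log2 scale in replicate 3, and Tbr1, with 5486, by 1.19, both above the upper quartile of their length class, as were Rorb and Bcl11b. When the trend on exon length was removed from each library, the KO difference was -0.02 for Cux1, -0.14 for Cux2, 0.39 for Rorb, 0.15 for Bcl11b, 0.45 for Tbr1 and 0.81 for Foxp2 (edgeR adjusted p from 0.491 to 0.873). The part of exon length in these values was not tested further.

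**Figure D4:**
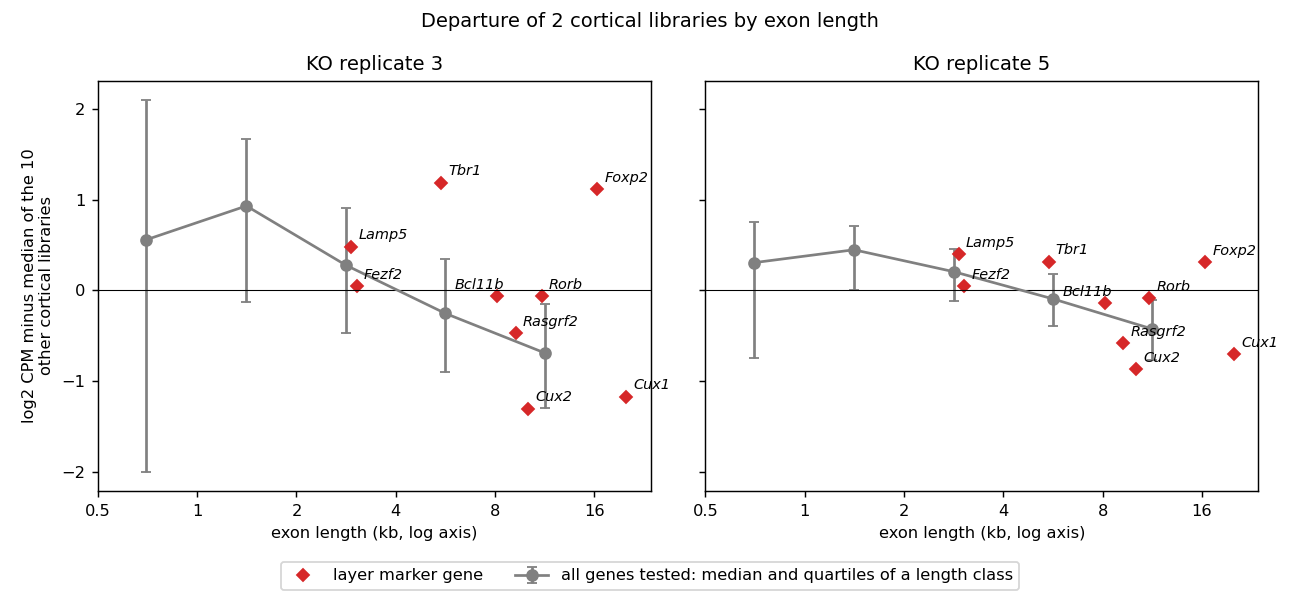
Log2 CPM of KO replicate 3 (left) and KO replicate 5 (right) minus the median of the 10 other cortical libraries, against exon length on a log axis; red diamonds are the 9 genes, and grey circles with bars are the median and quartiles of all genes tested in a length class, drawn at its centre. The medians fall from 0.93 to -0.69 and from 0.45 to -0.42 between 1 to 2 kb and over 8 kb, and Tbr1, Foxp2 and Rorb lie above the quartiles of their class in both panels and Bcl11b in the left one. Cux2 lies below the quartiles of its class in both panels, by little in the left one.

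Markers of neighbouring tissue were read beside the members, since the cortex borders on striatum, hippocampus and olfactory bulb. In replicate 3, single genes of the same list went both ways. Of 10 striatal markers 4 were above the range of the 10 other libraries and 1 below it, and the 3 of highest level were at -3.67 (Pde10a), 0.73 (Ppp1r1b) and 1.88 (Penk) on the log2 scale. Of 8 interneuron markers 5 were above and 3 below, and the 4 of highest level were at 0.64 (Gad1), -0.56 (Gad2), 2.58 (Sst) and -0.37 (Slc32a1). Of 8 hippocampal markers 1 was above and 5 were below. Of 7 excitatory neuron markers 3 were above and 2 below, and the 4 of highest level were at -2.03 (Camk2a), -1.24 (Slc17a7), 1.46 (Nrgn) and 1.00 (Neurod2).

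In replicate 5, 6 of 8 cerebellar markers were above the range of the 10 other libraries and none below, where 64.8% of the genes tested in cortex were outside it. The 6 include markers that were too low to be tested in cortex, so that share does not apply to all of them. Calb1, which is also on the upper-layer list, was among the 6. Cbln3 was at 14.7 CPM against 0.521 to 9.73, with a mean of 0.724 in WT cortex and 1596 in WT cerebellum. In KO replicate 4 the 6 cerebellar markers tested in cortex were also all above the median of the other libraries without replicates 3 and 5, with a median of 1.22 on the log2 scale. Of the striatal list 3 of 10 were above and 1 below, and of the hippocampal list 2 of 8 were above and 3 below. The summed level of the striatal list was 1416 CPM in replicate 3 and 886 in replicate 5, against 538 to 1192 in WT cortex. Within WT, the library with the lowest striatal sum, replicate 3, had the lowest Foxp2 (9.57 CPM). That with the highest, replicate 6, had the highest Foxp2 (19.7 CPM) and the highest Bcl11b (103 CPM). By edgeR all 10 striatal markers were called higher in WT cortex than in WT hippocampus (28.6% of all genes) and than in WT cerebellum (42% of all genes). The part of striatal tissue in the Foxp2 and Bcl11b values was not tested. Whether KO replicates 3 and 5 were dissected differently was not tested.

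The summed levels of the marker lists rest on a few abundant genes. The excitatory neuron list summed to 3705 CPM in replicate 3 and 3835 in replicate 5, against 5409 to 6356. Of that, Camk2a was 964 and 1962 against 3644 to 4271, and in replicate 5 of the 7 genes 4 were above and 2 below the range of the 10. The astrocyte list summed to 2798 and 3476 CPM against 5200 to 6297, of which Slc1a2 was 1873 and 2215 against 3821 to 4930. Of its 6 genes 4 were below the range in replicate 3 and 2 in replicate 5, and none was above. The interneuron list was higher, at 2354 and 1259 against 919 to 1113 CPM, as was the cerebellar list, at 495 and 282 against 149 to 205, of which Calb1 alone was 482 in replicate 3. The hippocampal list was lower, at 84.3 and 113 against 147 to 183, of which Zbtb20 alone was 20.9 and 33.1 against 79.3 to 108. Of its 8 genes 1 was above and 5 below the range in replicate 3, and 2 above and 3 below in replicate 5. Within or close to the range were the oligodendrocyte list, at 3527 and 3230 against 2620 to 3243 CPM, the microglial list, at 318 and 281 against 254 to 307, the thalamic list, at 146 and 123 against 125 to 143, the olfactory bulb list, at 22.9 and 32.2 against 14.6 to 37.7, and the choroid plexus list, at 38.6 and 351 against 16.4 to 727. Single genes behind such sums went both ways in replicate 3. Of 7 oligodendrocyte genes 4 were above and 2 below the range of the 10. Of 6 microglial genes 3 were above and 2 below, and of 6 thalamic genes 3 were above and 3 below. The vascular and meningeal list was at 323 and 194 against 191 to 238 CPM, and the early activity genes at 818 and 659 against 503 to 1382. The part of these cell types in the members' values was not tested.

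The comparison was then made for other genes of the layers, from lists compiled for this purpose. Of 11 further upper-layer genes and 18 further deep-layer genes, 0 and 0 were called in KO cortex in either direction by edgeR, with medians of -0.08 and 0.04 on the log2 scale. At an unadjusted p below 0.05 there were 0 of 11 and 1 of 18. That gene was Pcp4, a calmodulin regulator of layer V, at 1.28 (SE 0.50, unadjusted p = 0.0247, edgeR adjusted p = 0.474), with 160 CPM in replicate 3, 42.0 in replicate 5 and 15.5 to 24.2 in the 10 other libraries. Of the upper-layer list, Calb1, a calcium-binding protein, was at 0.57 (SE 0.28), with 482 CPM in replicate 3 and 232 in replicate 5 against 136 to 169. For Calb1, replicates 3 and 5 were the highest of the 12.

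In hippocampus none of the 9 was called in KO (0.165% of 17588 genes were), 1 had an unadjusted p below 0.05 (7.7% of all genes), and DESeq2 called 0. That gene was Lamp5, which ranged from 33.6 to 41.3 CPM in WT (median 37.6) and from 38.2 to 50.2 in KO (median 42.0). All 6 KO libraries were above the WT median, and the groups overlapped. The difference was 0.19 (SE 0.07), with an edgeR adjusted p of 0.549 and an exact permutation p of 0.0346. The other 8 lay between -0.37 (Foxp2, SE 0.27) and 0.08 (Bcl11b, SE 0.08), and no member had groups that did not overlap, where 0.677% of all genes had.

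In cerebellum 8 of the 9 were tested, since the counts of Fezf2 were too low to test. None was called (0.0817% of 17139 genes were), none had an unadjusted p below 0.05 (5.85% of all genes), DESeq2 called 0, and no groups were without overlap (1.13% of all genes). Cux1 ranged from 143 to 156 CPM in WT (median 145) and from 72.2 to 156 in KO (median 140), and Tbr1 from 0.4999 to 0.771 in WT (median 0.626) and from 0.212 to 1.83 in KO (median 0.551). The lowest Cux1 and the highest Tbr1 were both in KO replicate 2. In that library 77.4% of all genes were outside the range of the other 11 cerebellar libraries, 8.02% of reads were outside genes, and the log2 difference fell by 0.24 per doubling of exon length. Without it the KO difference of Cux2 went from -0.04 (SE 0.18) to 0.10 (SE 0.06) and that of Tbr1 from 0.14 (SE 0.40) to -0.38 (SE 0.25).

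Whether the KO difference itself differed between regions was tested over the 36 libraries with the mouse as a block. No member was called by edgeR for cortex against hippocampus (0% of 19388 genes were) or for cortex against cerebellum (0.0103%), and DESeq2 called 0 members in both. Unadjusted p values were below 0.05 for 2 members against hippocampus (4.42% of all genes) and for 1 against cerebellum (3.72%). Rorb was one of them in both, with differences of 0.27 (SE 0.09, unadjusted p = 0.00566, adjusted p = 0.641) and 0.27 (SE 0.09, unadjusted p = 0.00668, adjusted p = 1). Both differences use the same cortical libraries, so they are not independent. Foxp2 was the other against hippocampus, at 0.74 (SE 0.29, unadjusted p = 0.0177, adjusted p = 0.641). In hippocampus alone Rorb was at -0.08 (SE 0.06), with WT at 17.2 to 20.9 CPM and KO at 16.3 to 19.3, so that its groups overlapped there as well.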

How the data were processed

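Total RNA libraries (stranded, ribosomal and low-complexity reads removed) of 6 KO and 6 WT mice per brain region were used. The deposited files held raw read counts per gene, which the authors made with HTSeq 0.9.1 after trimming with cutadapt 1.8 and alignment to GRCm38 with STAR 2.5.3a; no normalization was applied. Of 53715 gene identifiers, 53620 were matched to GENCODE M21, which gave symbols, coordinates and exon lengths. Brain libraries held 29204390 to 48807435 counted reads (median 42339164.5). Precision was taken from the spread between mice or, with the mouse as a block, from the spread that remained.

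Counts were tested with edgeR 4.0.16 in R 4.3.3 (TMM, filterByExpr with a count minimum of 10, quasi-likelihood test, Benjamini-Hochberg over all genes tested, threshold 0.05). Genotypes were compared within a region by genotype alone. Regions, and differences of the genotype effect between regions, were fitted with the mouse as a block, since the mouse number in the labels says which libraries come from 1 animal. Deviations of the same WT mouse in cortex and hippocampus correlated at 0.288 to 0.507, and those of KO mice in cortex and cerebellum at -0.626 to 0.603. For single genes, log2 CPM (prior count 2) were compared by two-sided exact permutation over all divisions of the mice into 6 and 6. The edgeR fits were tested on simulated data.

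The 9 genes and the marker lists were chosen with earlier results of these data known. Named besides the 9 are Gnb5, the 4 genes of smallest p in each further layer list or fewer, up to 4 genes of highest mean level in WT cortex in each other list, and the 2 nearest genes of each member. Some results that this rule selects are not reported here. Alternatives were DESeq2 1.42.0, RLE size factors, other filters, robust empirical Bayes, replicate blocks, all brain libraries in 1 fit, and fits without libraries. The 2 fits that took the percentage of reads not assigned to genes as a covariate, and with the trend on exon length removed were chosen after seeing the data.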

Additional observations from a re-analysis of the deposited data

Results flagged for a closer look

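Each member was checked in the 6 brain groups of 6 libraries for a library whose gap to its nearest neighbour exceeded Dixon's 95% critical share of the group's range. This happened in 5 of 54 gene and group combinations, where chance flags about 1 in 20. In KO cortex it was Tbr1 in replicate 3, at 267 CPM with the other 5 libraries between 113 and 146. In KO cerebellum it was replicate 2 at 3 genes: Cux1 at 72.2 CPM against 136 to 156, Cux2 at 23.2 against 48.7 to 57.6, and Tbr1 at 1.83 against 0.212 to 0.690. In WT hippocampus Foxp2 was at 0.928 CPM in replicate 3 against 1.54 to 1.79. That mouse also had the lowest Foxp2 in WT cortex. In replicate 3 of KO cortex 6.86% of reads were outside genes and in replicate 2 of KO cerebellum 8.02%; their part in these values was not tested.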

How the results depend on the processing

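No member was called in KO against WT in any region, or for a difference of the KO effect between regions, and all 9 were called in both regional comparisons, under every alternative that was run. Of the 9 in cortex, 0 had an unadjusted p below 0.05 in the main edgeR fit and 2 had with the trend on exon length removed. There was 1 with reads outside genes as a covariate, without KO replicates 3 and 5, and in some other fits. For cortex the share of all genes below that p was taken only in the main fit (7.39%). The counts of the other fits therefore cannot be read as a change in the members. Several differences changed sign, none of them past the threshold, and the cause was not tested. Leaving out 1 cortical library at a time gave -0.058 to 0.082 for Lamp5, -0.029 to 0.11 for Bcl11b and -0.066 to 0.021 for Fezf2 in cortex, and leaving out 1 cerebellar library gave -0.11 to 0.10 for Cux2 and -0.38 to 0.32 for Tbr1 in cerebellum. Without KO replicates 3 and 5 cortical Cux2 was 0.050 and Lamp5 -0.16, and with reads outside genes as a covariate they were 0.047 and -0.16. With the trend on exon length removed, cortical Lamp5 was -0.074, and in cerebellum Cux1 was 0.078, Cux2 0.055 and Rorb 0.11. With the covariate, cerebellar Cux1 was 0.10, Cux2 0.23, Lamp5 -0.21 and Tbr1 -0.60. Without the 2 cortical libraries the KO effect in cortex minus hippocampus was 0.058 for Cux1 and 0.35 for Cux2, and cortex minus cerebellum was 0.17 for Cux1, 0.22 for Cux2, 0.070 for Rasgrf2 and -0.068 for Tbr1. KO replicate 5 was outside the range at 5 members against the 10 other libraries (64.8% of all genes) and at 3 against KO libraries only (18.3% of all genes).

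Counts over all genes moved more. In cortex the 10 genes called were 25 by DESeq2, 6 with a minimum of 10 counts in every library, 33 with all brain libraries in 1 fit, 26 without KO replicates 3 and 5, 22 without KO replicate 3 and 20 without WT replicate 1. In hippocampus 29 became 104 by DESeq2. In cerebellum 14 became 49 by DESeq2, 42 with all libraries, 39 with the covariate, 62 without KO replicate 2, 30 without WT replicate 1, 9 without KO replicate 5 or 6 or WT replicate 2 or 5, and 6 without mice M14 and M3. The 2 genes called for cortex minus cerebellum became 20 by DESeq2, 4 without the mouse block and 6 without the 2 cortical libraries. WT and KO libraries of 1 number are different animals, and their deviations in cortex correlated at -0.166 to 0.033. With the replicate number as a block the counts were 6, 19 and 5 in cortex, hippocampus and cerebellum, no member was called, and Tbr1 in cerebellum was -0.10.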
